A study of Mus musculus with 10 samples.

Results

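Chemokine receptors are G protein-coupled receptors that steer leukocytes along gradients of small secreted proteins, the chemokines. The 9 members of this family described here, Ccr1, Ccr2, Ccr4, Ccr7, Ccr9, Cxcr3, Cxcr4, Cxcr6 and Cx3cr1, were chosen by symbol as receptors that guide leukemia cells and myeloid cells. All 9 were found among the 20813 genes of the deposited table. RNA had been sequenced from the spleens of mice transplanted with T-cell acute lymphoblastic leukemia (T-ALL), a cancer of immature T cells. Every leukemia carried a conditional Sirt1 allele, every recipient was given sublethal irradiation, and the strain label of all samples is C57BL/6. The 5 mice labelled Sirt1 deleted (replicates 7, 8, 10, 11 and 12) are those whose titles carry the tamoxifen abbreviation, at 3 mg of tamoxifen per mouse in corn oil, and the 5 mice labelled Control (replicates 2 to 6) received corn oil alone. Tamoxifen treatment and Sirt1 genotype therefore cannot be told apart. The driver of the recombinase, the ages of the mice and the number of independent leukemias are not given in the sources used here, and p-values measure the spread between these spleens.

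Receptor and ligand are paired with some redundancy. Cxcr4 binds Cxcl12 and holds hematopoietic and leukemic cells in bone marrow, Ccr9 binds Ccl25 and is a receptor of developing thymocytes, and Ccr7 binds Ccl19 and Ccl21 and leads lymphocytes into the T cell zones of spleen and lymph nodes. Ccr4, the receptor of Ccl17 and Ccl22, is found on T cells, including regulatory and type-2 helper cells. Cxcr3 (ligands Cxcl9 and Cxcl10) and Cxcr6 (ligand Cxcl16) are carried by activated T cells and natural killer cells. Ccr1, Ccr2 and Cx3cr1 are used mainly by myeloid cells: Ccr2 brings monocytes out of the bone marrow, Cx3cr1 marks patrolling monocytes and many tissue macrophages, and Ccr1 is found on monocytes and neutrophils.

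Of the 9 receptors, 6 lie on mouse chromosome 9. Ccr9 (chr9:123678439-123784330), Cxcr6 (chr9:123806475-123811760), Ccr1 (chr9:123962124-123968692) and Ccr2 (chr9:124101950-124113557) share 1 receptor cluster, and Ccr4 (chr9:114490316-114504916) and Cx3cr1 (chr9:119901616-120069879) lie apart from it. Ccr7 is on chromosome 11 (chr11:99144196-99155077), Cxcr4 on chromosome 1 (chr1:128588199-128592293) and Cxcr3 on the X chromosome (chrX:101731535-101734269). These are GENCODE M21 gene spans on GRCm38, the assembly behind the mm10 build named in the submitters' processing notes.

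The RefSeq table of GRCm38.p6 gave a promoter for 8 of the 9 receptors, all but Ccr7. The 250 bases before the RefSeq transcription start are shown for the receptors with the clearest differences between the groups. These are 3 that were higher and Ccr4, which was lower, so that their sequences can be set side by side. The RefSeq start need not be the outer edge of the GENCODE span. By the spans above, the Ccr4 and Cx3cr1 windows lie inside the gene, and most of the Ccr2 window does. They are written 5′ to 3′ on the gene's own strand, with matches to the searched motifs in capitals.
Ccr1 (minus strand, chr9:123968693-123968942): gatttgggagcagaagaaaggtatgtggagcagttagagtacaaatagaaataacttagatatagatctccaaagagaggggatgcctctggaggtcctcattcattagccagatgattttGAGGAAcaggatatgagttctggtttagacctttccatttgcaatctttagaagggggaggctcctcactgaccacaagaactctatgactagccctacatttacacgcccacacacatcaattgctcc
Ccr2 (plus strand, chr9:124101933-124102182): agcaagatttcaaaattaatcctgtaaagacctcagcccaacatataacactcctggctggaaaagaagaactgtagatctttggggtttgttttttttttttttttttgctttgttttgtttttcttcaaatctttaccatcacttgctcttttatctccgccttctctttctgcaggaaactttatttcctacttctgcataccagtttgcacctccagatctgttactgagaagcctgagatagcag
Cx3cr1 (minus strand, chr9:120068297-120068546): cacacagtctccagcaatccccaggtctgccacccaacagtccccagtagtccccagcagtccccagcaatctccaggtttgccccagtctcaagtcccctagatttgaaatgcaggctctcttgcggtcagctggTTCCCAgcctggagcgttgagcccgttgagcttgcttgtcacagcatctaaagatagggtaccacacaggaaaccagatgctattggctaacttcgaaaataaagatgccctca
Ccr4 (minus strand, chr9:114496545-114496794): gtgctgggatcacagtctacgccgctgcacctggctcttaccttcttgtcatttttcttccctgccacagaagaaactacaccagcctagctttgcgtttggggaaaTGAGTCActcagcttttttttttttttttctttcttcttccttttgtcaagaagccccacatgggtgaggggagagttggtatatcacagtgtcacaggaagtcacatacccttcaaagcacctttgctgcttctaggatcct

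The motifs were searched on both strands, and no match overlapped another. They were the interferon-stimulated response element in its core form, held by 2.98% of 32851 promoter windows of this length, the STAT motif TTCNNNGAA (7.02%), the AP-1 motif TGANTCA (6.75%), the RBPJ motif TGGGAA (21.6%), the PU.1 core GAGGAA (23.3%) and the C/EBP motif TTGCNNAA (9.56%). The Ccr1 window held 1 PU.1 core, 129 bases before the start. The Ccr4 window held 1 AP-1 motif, 143 bases before the start, and the Cx3cr1 window held 1 RBPJ motif on the opposite strand, 114 bases before it. The Ccr2 window held none of the 6 motifs. Among the receptors whose windows are not printed, Cxcr3 held 1 PU.1 core, 14 bases before the start. These are matches of letters in a window, with distances counted from the RefSeq start, and do not show binding.

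The deposited normalized counts summed to between 33.7 and 34.5 M per spleen, and the spacing of low values puts depth at roughly 31.4 to 38.5 M reads, an estimate from which no counting intervals were drawn. Cd3e, a chain of the T cell receptor complex, measured 12238 ± 483 normalized counts (SD, n = 5) in controls. With no spleen free of T-ALL to compare, that value does not check the T cell origin in the label. Sirt1 itself measured 1873 ± 146 in the samples labelled Sirt1 deleted and 1810 ± 62.5 in controls (SD, n = 5 each; limma adjusted p = 0.568). The gene-level value thus does not check the label, so these spleens are referred to by their label. Across the transcriptome 5518 of 15276 tested genes (36.1%) passed the threshold (limma, Benjamini-Hochberg adjusted p under 0.05), 16.8% as higher and 19.4% as lower in the labelled Sirt1-deleted spleens. Upper-quartile rescaling moved the higher share of these calls from 46.4% to 58.2%.

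Cxcr4 was the most abundant chemokine receptor transcript of these leukemic spleens by a wide margin. Per kilobase of its longest protein-coding transcript, its level in controls was 4395 ± 124 normalized counts per kilobase (SD, n = 5). Ccr4 followed with 776 ± 34.1, Ccr9 with 473 ± 108 and Ccr7 with 257 ± 26.7 normalized counts per kilobase. In controls the ranges of Cxcr4, Ccr4, Ccr9 and Ccr7 on this scale did not overlap between neighbours in this order. The other 5 receptors lay far lower per kilobase in controls: Cxcr6 at 18.3 ± 3.87, Ccr2 at 11.9 ± 2.35, Ccr1 at 8.54 ± 2.16, Cxcr3 at 8.16 ± 2.09 and Cx3cr1 at 5.41 ± 0.629 (SD, n = 5 each). Among these, the control ranges of Cxcr6 and Ccr2, of Ccr2, Ccr1 and Cxcr3, and of Cxcr3 and Cx3cr1, overlapped, so their order is not settled beyond the spread. With the median in place of the longest transcript length, Ccr2 came before Cxcr6, while the first 4 kept their places.

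**Figure D1:**
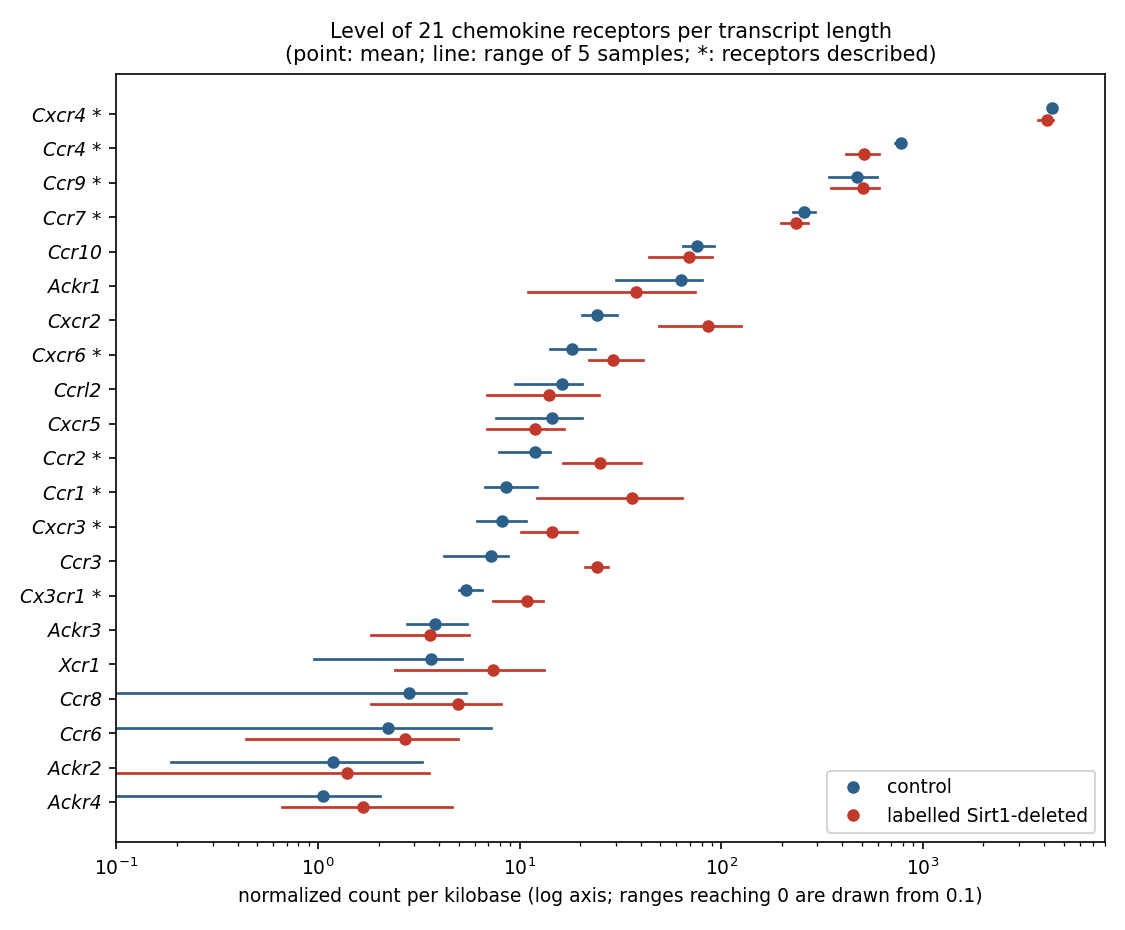
Level of 21 chemokine receptors in normalized counts per kilobase of the longest protein-coding transcript (log axis), with points for group means, lines for the range of 5 samples, and asterisks for the 9 receptors described. Cxcr4 stands at 4395 in controls, Ccr4, Ccr9 and Ccr7 follow between 257 and 776, and Ccr1, Ccr2, Cxcr3, Cxcr6 and Cx3cr1 lie below 20 in controls and are shifted to the right in the labelled Sirt1-deleted group.

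As a share of the summed per-kilobase level of the 22 chemokine receptors in the table, Cxcr4 made up 71.1% ± 1.52 in controls and 71.5% ± 0.730 in labelled Sirt1-deleted spleens (SD, n = 5 each). The share of Ccr4 was 12.6% ± 0.311 in controls, between 12.1% and 12.9%, and 9.01% ± 1.75 in the labelled Sirt1-deleted group, between 7.06% and 11.7%. Ccr1, Ccr2, Cxcr3, Cxcr6 and Cx3cr1 together held 0.848% ± 0.137 of the receptor level in controls and 1.97% ± 0.515 in the labelled Sirt1-deleted group. These shares are descriptions, and the receptors were pooled with their directions known.

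All 9 receptors had a mean of at least 10 normalized counts and entered the test. Ccr1, Ccr2, Cx3cr1, Cxcr3 and Cxcr6 rose in the labelled Sirt1-deleted spleens, Ccr4 fell, and Ccr7, Ccr9 and Cxcr4 did not pass the threshold. That is 5 of 9 higher and 1 of 9 lower, against a background of 16.8% and 19.4% of all tested genes. The median log2 difference of the 9 receptors was 0.63, and that of all tested genes was -0.00014. The members were chosen with earlier results of these data known, so these figures are descriptions and no independent support. The 2 groups of values did not overlap for Ccr2 and Cx3cr1 (higher) and for Ccr4 (lower), where 24% of all tested genes had groups that did not overlap, 11.1% as higher and 12.9% as lower. In whole tissue, fewer or more cells of a type cannot be told apart from less or more RNA per cell. All differences below are on the log2(normalized count + 1) scale, labelled Sirt1-deleted minus control.

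**Figure D2:**
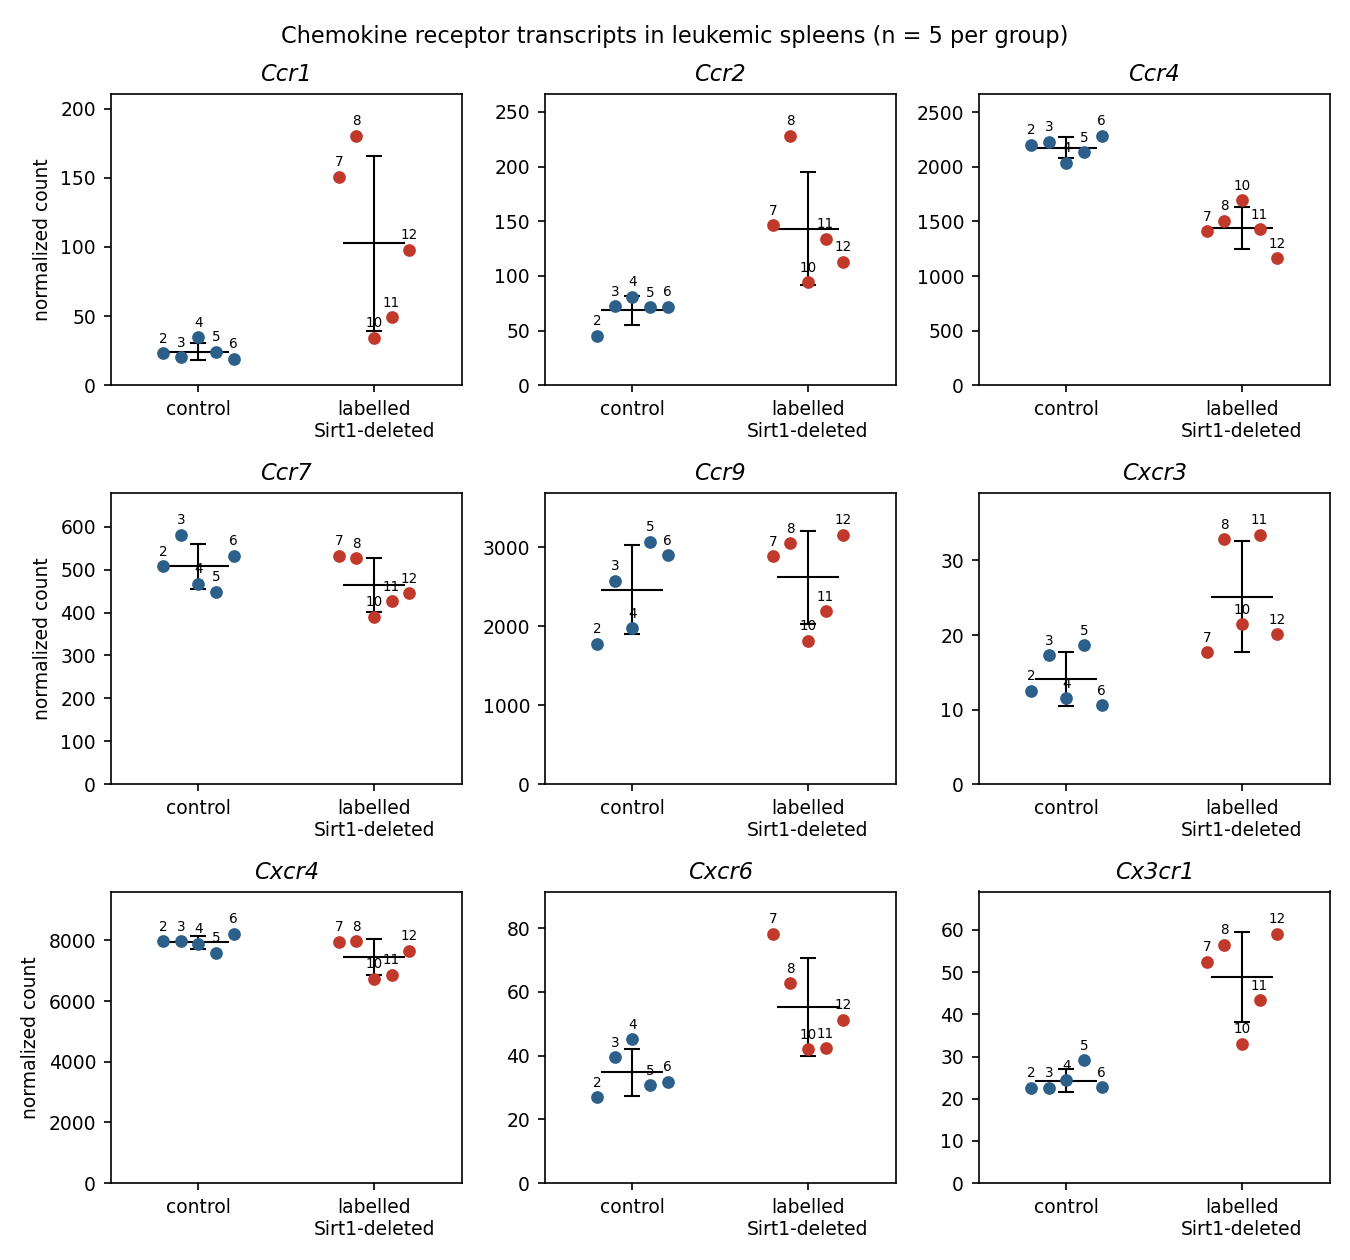
Normalized count of each of the 9 receptors in every spleen (linear axis from 0; numbers are replicate labels; black bars are the mean and SD of 5 samples). Ccr4 is lower in all labelled Sirt1-deleted spleens, at 1165 to 1697 against 2037 to 2284, Ccr2 and Cx3cr1 are higher in all of them, and the groups of Cxcr4, Ccr7 and Ccr9 overlap.

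Cxcr4, the receptor of the niche chemokine Cxcl12, measured 7983, 7975, 7898, 7594 and 8216 normalized counts in control replicates 2 to 6. In labelled Sirt1-deleted replicates 7, 8, 10, 11 and 12 it measured 7962, 7971, 6744, 6874 and 7661. Replicates 10 and 11 lay below every control, while the other 3 lay among them. The log2 difference of Cxcr4 was -0.10 (SE 0.06, 95% interval -0.22 to 0.02), not larger than the spread between samples (limma adjusted p = 0.195). The interval of Cxcr4 is the narrowest of the 9 receptors. Without replicates 10 and 11 the difference was -0.01 (limma adjusted p = 0.835). That follows from leaving out the lowest spleens for Cxcr4.

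Ccr9, the thymocyte receptor for Ccl25, varied widely inside both groups. Control replicates 2 to 6 measured 1778, 2576, 1979, 3069 and 2896 normalized counts. Labelled Sirt1-deleted replicates 7, 8, 10, 11 and 12 measured 2888, 3049, 1815, 2189 and 3157. The groups overlapped almost whole, with low and high spleens in each. Ccr9 differed by 0.09 on the log2 scale (SE 0.18, 95% interval -0.29 to 0.48; limma adjusted p = 0.723), and it was -0.02 without control replicate 2. Ccr9 is also the receptor whose reads are hardest to assign, since 21.8% of the 31-base words of its transcripts occur in transcripts of other genes, most often the antisense locus AC165425.1, and its exons overlap those of Slc6a20a on the opposite strand. Its value is therefore uncertain.

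Ccr7, which leads T cells and T-ALL cells toward Ccl19 and Ccl21, ranged from 449 to 581 normalized counts in controls with a median of 508. In the labelled Sirt1-deleted spleens it ranged from 390 to 533 with a median of 446. Replicates 10, 11 and 12 were the 3 lowest values of all 10 spleens, and replicates 7 and 8 lay among the controls. For Ccr7 the log2 difference was -0.13 (SE 0.11, 95% interval -0.36 to 0.10; limma adjusted p = 0.347). Notch1, a regulator of Ccr7 in T-ALL, measured 19821 ± 3732 against 24898 ± 1640 in controls (SD, n = 5 each; log2 difference -0.35, limma adjusted p = 0.0247). The call of Notch1 was lost without labelled Sirt1-deleted replicate 7 or 12 or control replicate 2 (highest limma adjusted p = 0.0641).

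Ccr4 was the member that fell. Control replicates 2 to 6 measured 2202, 2231, 2037, 2135 and 2284 normalized counts. Labelled Sirt1-deleted replicates 7, 8, 10, 11 and 12 measured 1413, 1508, 1697, 1430 and 1165. Every control lay above every labelled Sirt1-deleted spleen, and the controls were tightly grouped. The means were 2178 ± 95.5 and 1443 ± 192 (SD, n = 5 each), 0.662 times the control level. Ccr4 had a log2 difference of -0.60 (SE 0.08, 95% interval -0.78 to -0.42; limma adjusted p = 5.85e-04), and an exact permutation test, two-sided over every assignment of the 10 spleens, gave p = 0.00794, the smallest that this design allows. It stayed between -0.68 and -0.53 with an adjusted p of at most 0.0331 under each of the 21 alternatives run. The direction of Ccr4 was thus opposite to that of the myeloid receptors in the same spleens.

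The regulatory T cell markers were looked at beside Ccr4. Of the 5 listed, Foxp3, the lineage factor of those cells, was at 13.3 ± 3.29 normalized counts against 13.4 ± 4.90 in controls (limma adjusted p = 0.947). Il2ra and Ctla4 fell, with log2 differences of -0.73 and -0.70 (limma adjusted p = 0.0415 and 0.0434), and each of the 2 calls was lost without any one of labelled Sirt1-deleted replicates 7, 8 and 12 and control replicates 2, 3, 5 and 6 (highest limma adjusted p = 0.103). Among all tested genes 16.8% were higher and 19.4% lower. The summed level of the 5 markers ranged from 13950 to 18347 normalized counts in the labelled Sirt1-deleted group and from 15362 to 18676 in controls. Most of that sum is Ikzf2, between 13215 and 17903 in every spleen, so the sum does not measure the other markers. The part of regulatory T cells in the Ccr4 difference was not tested. The Ccr4 ligands Ccl17 and Ccl22 were below the minimum mean, at no more than 3.01 normalized counts in either group's mean, so no fold is given for them.

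Ccr1 showed the largest difference and the widest spread among the 9 receptors. Controls 2 to 6 measured 23.1, 20.1, 34.5, 24.1 and 19.1 normalized counts. Labelled Sirt1-deleted replicates 7, 8, 10, 11 and 12 measured 151, 180, 34.4, 49.2 and 98.0. Replicate 10 lay just below the highest control, so the groups overlapped by that 1 sample, and replicates 7 and 8 were the highest. The means were 103 ± 63.0 and 24.2 ± 6.13 (SD, n = 5 each), a ratio of 4.24. For Ccr1 the log2 difference came to 1.81 (SE 0.40, 95% interval 0.94 to 2.69; limma adjusted p = 0.00518; exact two-sided permutation p = 0.0159). With the exact rank-sum test its adjusted p was 0.0512.

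Ccr2, the receptor by which monocytes leave the marrow, measured 45.4, 72.1, 81.1, 71.3 and 71.8 normalized counts in controls 2 to 6. In labelled Sirt1-deleted replicates 7, 8, 10, 11 and 12 it measured 147, 228, 94.1, 134 and 113. All 5 were above the highest control, with replicate 8 at the top and replicate 10 nearest to the controls. The log2 difference of Ccr2 was 1.02 (SE 0.23, 95% interval 0.52 to 1.514; limma adjusted p = 0.00559; exact two-sided permutation p = 0.00794), and the means differed 2.10-fold. Ccr2 shares 3.48% of its 31-base words with other genes, so that some of its reads could be assigned elsewhere.

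Cx3cr1, the receptor of membrane-bound fractalkine, measured 22.6, 22.6, 24.4, 29.2 and 22.8 normalized counts in controls 2 to 6. Labelled Sirt1-deleted replicates 7, 8, 10, 11 and 12 measured 52.5, 56.5, 33.0, 43.3 and 59.1. The groups did not overlap, and replicate 10 was again nearest to the controls. Cx3cr1 had a log2 difference of 0.95 (SE 0.21, 95% interval 0.51 to 1.40; limma adjusted p = 0.00439; exact two-sided permutation p = 0.00794), with means 2.01-fold apart. The gene overlaps a predicted opposite-strand locus, Gm33858, in its exons, and the strand setting of the counting is not given in the sources used here.

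Cxcr3 and Cxcr6, receptors of activated T cells and natural killer cells, rose at low levels and close to the threshold. Cxcr3 measured 12.5, 17.3, 11.5, 18.7 and 10.6 normalized counts in controls 2 to 6, and 17.7, 32.9, 21.5, 33.4 and 20.1 in labelled Sirt1-deleted replicates 7, 8, 10, 11 and 12. Only replicate 7 lay below the highest control. The log2 difference of Cxcr3 was 0.77 (SE 0.27, 95% interval 0.18 to 1.37; limma adjusted p = 0.0424; exact two-sided permutation p = 0.0159). Cxcr6 measured 26.9, 39.4, 45.2, 30.7 and 31.8 normalized counts in controls and 78.2, 62.6, 41.9, 42.3 and 51.2 in the labelled Sirt1-deleted replicates in the same order. Replicates 10 and 11 lay below control replicate 4, and replicate 7 was the highest. The log2 difference of Cxcr6 was 0.63 (SE 0.22, 95% interval 0.15 to 1.12; limma adjusted p = 0.0414; exact two-sided permutation p = 0.0317). Neither call was firm. Quantile normalization gave 0.48 for Cxcr3 (limma adjusted p = 0.209) and 0.37 for Cxcr6 (limma adjusted p = 0.201). The call of Cxcr3 was lost without any one of labelled Sirt1-deleted replicates 8, 11 and 12 and control replicates 2, 4 and 6 (differences of 0.66 to 0.88 over the 10 fits, highest limma adjusted p = 0.101). That of Cxcr6 was lost without any one of labelled Sirt1-deleted replicates 7, 8 and 12 and control replicates 2, 3, 5 and 6 (0.50 to 0.73, highest limma adjusted p = 0.108).

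**Figure D3:**
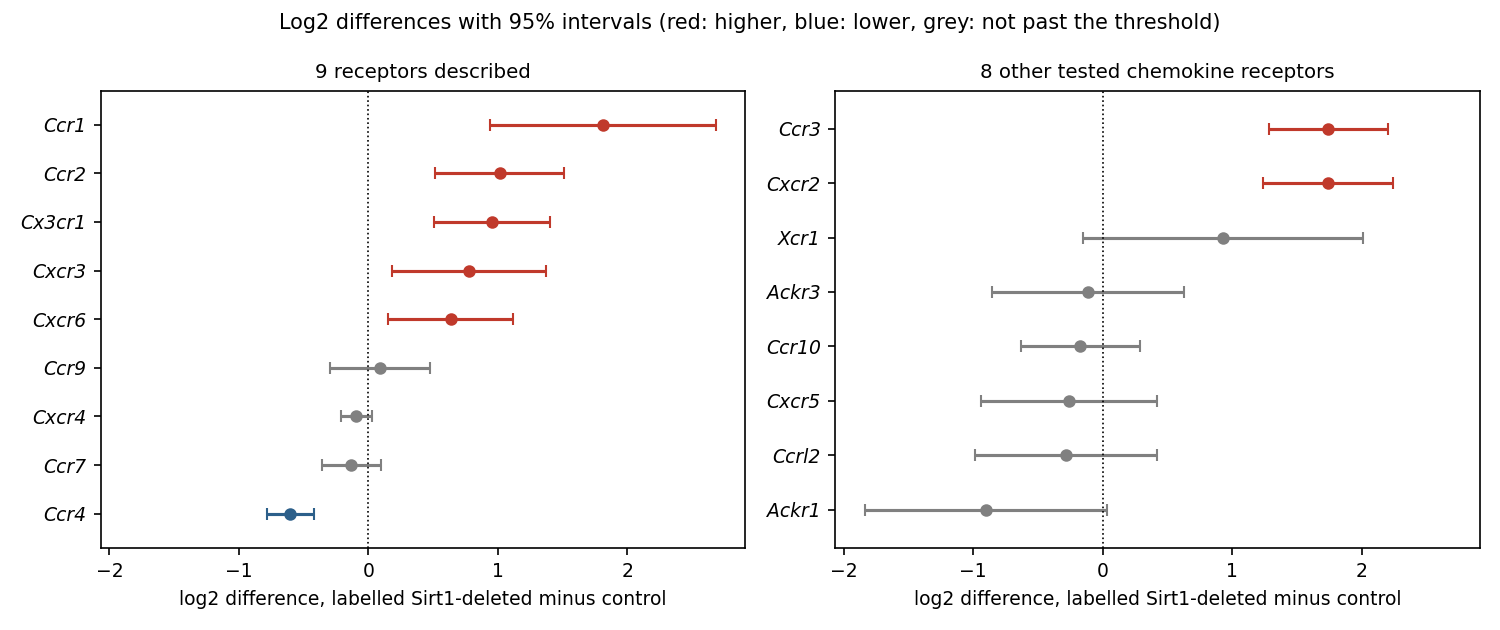
Log2 difference with its 95% interval (limma) for the 9 receptors described, left, and 8 other tested chemokine receptors, right. On the left 5 receptors are higher, Ccr4 is lower at -0.60 and Ccr9, Cxcr4 and Ccr7 span 0, and on the right Ccr3 and Cxcr2 are higher, both at 1.74.

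Of 14 other chemokine receptors listed, 13 were measured, 9 entered the test, 2 were higher and 0 were lower by limma, where 16.8% and 19.4% of all tested genes were. At an unadjusted limma p under 0.05, 0 of the remaining 7 were lower. The median log2 difference of the 9 tested was -0.12. Ccr3, the receptor of eosinophils, measured 79.5 ± 9.28 normalized counts in labelled Sirt1-deleted spleens and 23.6 ± 5.69 in controls (SD, n = 5 each), higher by 1.74 on the log2 scale with an SE of 0.21 (limma adjusted p = 2.96e-04). Cxcr2, the neutrophil receptor, measured 262 ± 96.1 against 74.1 ± 12.6, also higher by 1.74 with an SE of 0.23 (limma adjusted p = 4.81e-04). Ccr10, Cxcr5, Xcr1, Ccrl2, Ackr1 and Ackr3 did not pass. Xcr1, the receptor of cross-presenting dendritic cells, passed as higher without labelled Sirt1-deleted replicate 10 (1.25), and Ackr1, the chemokine scavenger of erythroid and endothelial cells, passed as lower without replicate 11 (-1.21). Ccr6, Ccr8, Ackr2 and Ackr4 had means under 10, and Cxcr1 was not analysed here.

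The chromosome 9 cluster, from the start of Ccr9 to the end of Ccr2, holds 9 protein-coding genes in GENCODE M21, and 8 of them were tested. Of these, 4 were higher and 1 was lower (limma), where 16.8% and 19.4% of all tested genes were. In their order along the chromosome, the log2 differences were 0.09 for Ccr9, -0.15 for Lztfl1, -0.26 for Fyco1 (limma adjusted p = 0.0442), 0.63 for Cxcr6, 0.93 for Xcr1, 1.81 for Ccr1, 1.74 for Ccr3 and 1.02 for Ccr2. Of these, Cxcr6, Ccr1, Ccr3 and Ccr2 passed as higher. Cxcr6 lies within the span of Fyco1 on the opposite strand without shared exonic bases, and the 2 genes differed in opposite directions. Calls in the cluster were mixed: Ccr9 at its start, Lztfl1 and Xcr1 did not pass, and Fyco1 passed as lower close to the threshold. The 95% interval of Xcr1 was -0.16 to 2.01, so not passing does not show that it was unchanged. Cxcr6, Ccr1 and Ccr2 are members already counted above. Whether the cluster changed together was not tested.

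Markers of neutrophils and of monocytes and macrophages rose in the same spleens as Ccr1, Ccr2 and Cx3cr1. Of all tested genes, 16.8% were higher and 19.4% lower. Of 14 neutrophil markers 13 rose and 0 fell, and their summed level ranged from 28975 to 99982 normalized counts in the labelled Sirt1-deleted group and from 9166 to 12659 in controls. Of 16 monocyte and macrophage markers 12 rose and 0 fell, with sums of 6948 to 12669 against 3375 to 3906. Ly6c2, which marks inflammatory monocytes, rose by 1.97, and Ly6g, which marks neutrophils, rose by 3.42 on the log2 scale. Of 9 tested dendritic cell markers 4 rose and 0 fell, with sums of 4866 to 6692 against 2752 to 3306. Most of that sum is Bst2, an interferon-induced gene also used as a plasmacytoid dendritic cell marker, and without it the sums overlapped, at 1027 to 1632 against 953 to 1112. Their part in the differences of Ccr1, Ccr2 and Cx3cr1 was not tested.

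The natural killer and cytotoxic markers, beside Cxcr3 and Cxcr6, did not pass. Of 6 tested, 0 rose and 0 fell by limma, where 16.8% and 19.4% of all tested genes did, and 1 had an unadjusted p under 0.05. Their summed level ranged from 12767 to 17746 normalized counts in the labelled Sirt1-deleted group and from 10380 to 15608 in controls, most of it Gzma, and Klrb1c was at 4.02 ± 2.85 against 6.13 ± 2.42 (SD, n = 5 each). Tbx21, the activator of Cxcr3 in type-1 T cells, measured 114 ± 14.7 against 127 ± 8.83 (limma adjusted p = 0.323). Of 15 T lineage markers 2 rose (Cd3d by 0.17 and Thy1 by 0.56) and 4 fell (Cd5, Rag1, Cd8b1 and Tcf7), against the same 16.8% and 19.4% of all tested genes. The call of Rag1 was lost without 7 of the 10 spleens in turn (highest limma adjusted p = 0.0852). The T lineage sums overlapped, from 233992 to 255316 against 228866 to 244320. Most of that sum is Thy1 and Tcf7, which went in opposite directions. Thy1 ranged from 60175 to 100216 against 47867 to 57490, and Tcf7 from 49376 to 64326 against 74746 to 80367. The overlap of the sums thus does not show that T cell content was unchanged. Of 8 B cell and 8 erythroid markers 0 passed in either direction by limma (2 and 1 at an unadjusted p under 0.05), and of 7 tested stromal and endothelial markers 2 fell, with sums of 4962 to 5478 against 5759 to 6654. Most of the stromal and endothelial sum is Pecam1 and Pdgfrb, while Cdh5 and Kdr were at no more than 22.7 normalized counts in any spleen. The part of these cell types in the receptor differences was not tested.

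**Figure D4:**
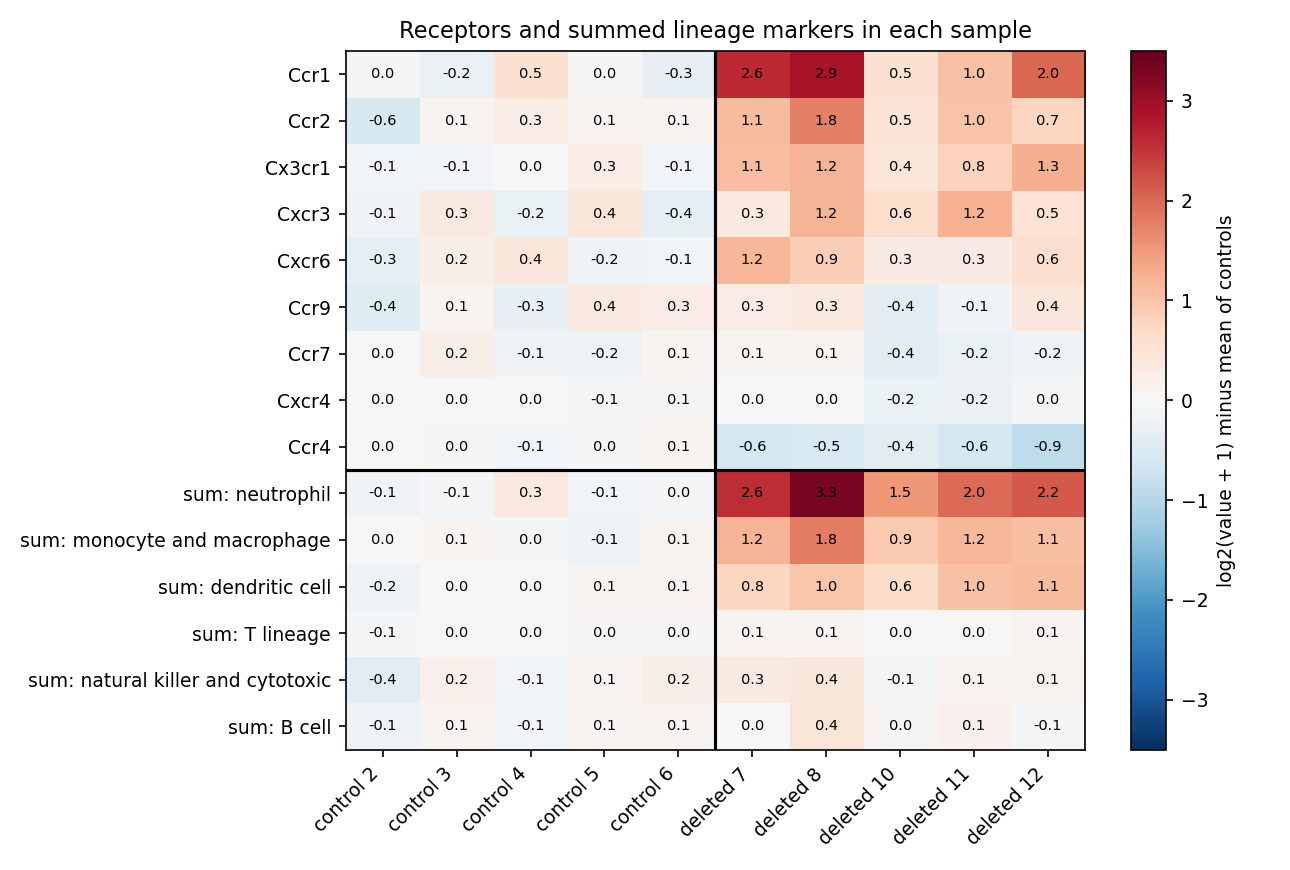
log2(value + 1) of the 9 receptors and of the summed markers of 6 cell lineages in each spleen, minus the mean of the 5 controls (red higher, blue lower; numbers are these differences). Labelled Sirt1-deleted replicate 8 has the highest neutrophil and monocyte sums and the highest Ccr1 and Ccr2, and replicate 10 has the lowest of its group in all 4.

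Within the labelled Sirt1-deleted group, replicate 10 was the lowest of its 5 spleens for 7 of the 9 receptors and the highest for 1, Ccr4. Replicate 8 was the highest for 3 receptors and the lowest for 0, while replicates 7 and 12 were each the highest for 2 and the lowest for 1. Replicate 10 also had the lowest neutrophil sum, 28975, and the lowest monocyte and macrophage sum, 6948, whereas replicate 8 had the highest, 99982 and 12669. Without replicates 10 and 11, the log2 difference of Ccr1 was 2.50, that of Ccr2 1.20, that of Cx3cr1 1.18 and that of Ccr4 -0.68, each past the threshold (limma; highest adjusted p = 0.00250). Replicates 10 and 11 were the lowest of their group for Ccr1 and Cx3cr1. The larger differences of Ccr1 and Cx3cr1 without them thus follow from the choice of spleens. Replicate 10 lay nearest to the controls for Ccr2 and Ccr4 too, but next came replicate 12 for Ccr2 and replicate 8 for Ccr4. None of the larger differences without replicates 10 and 11 adds support.

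Likeness of pattern was described by Pearson's r of log2 values over the 10 spleens, among 166 genes of the gene lists used here. The points share the group difference, so r of the deviations from the group means is given second. Ccr1 was most like the neutrophil genes Mmp8 (0.96, then 0.91), Cxcr2 (0.96, then 0.95) and Retnlg (0.96, then 0.88). Ccr2 was most like Ly6c2 (0.97, then 0.95), followed by the integrin Itgam and the alarmin S100a9. Cx3cr1 was most like the neutrophil genes Mmp9, Ltf and S100a9 (0.97, 0.95 and 0.95), with lower values within groups (0.81, 0.73 and 0.73).

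Ccr4 was most like Tcf7 (0.99, then 0.92), a T lineage transcription factor, then Rap1b and the T cell surface gene Cd5. Cxcr4 and Ccr7 were among each other's nearest (0.86, then 0.83), and Cd4 was in the list of both (0.88 for Cxcr4 and 0.84 for Ccr7). Ccr9 was most like Klf2 (0.85, then 0.87). Cxcr3 had the weakest likeness, 0.83 with Ly6c2 and 0.52 within groups, and its next were the monocyte gene Lyz2 (0.81, then 0.45) and Ccr3 (0.79, then 0.35). Cxcr6 was most like Rgs14 (0.91, then 0.82), followed by the neutrophil receptor Cxcr2 (0.90, then 0.87) and Ccr1 (0.90, then 0.77).

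Ligands of the receptors were measured in the same spleens. Of 17 listed, 13 were measured and 8 entered the test, of which 5 were higher and 0 lower by limma (16.8% and 19.4% of all tested genes were), with 0 of the remaining 3 at an unadjusted p under 0.05. Cxcl10, an interferon-induced ligand of Cxcr3, rose most, by 2.34 (limma adjusted p = 0.00106), with 55.1 ± 10.7 normalized counts against 11.7 ± 7.77 in controls (SD, n = 5 each), and every labelled Sirt1-deleted spleen lay above every control. Cxcl9, the other Cxcr3 ligand, rose from 23.8 ± 2.91 to 38.8 ± 9.96 (0.65, limma adjusted p = 0.0370). The call of Cxcl9 held in the 2 fits without labelled Sirt1-deleted replicate 7 or control replicate 4 and was lost without each of the other 8 spleens (highest limma adjusted p = 0.0915).

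The myeloid ligands of Ccr1 also rose. Ccl9 rose by 1.45 (limma adjusted p = 0.00420), with 62.0 ± 26.9 normalized counts against 20.6 ± 4.69 (SD, n = 5 each), and Ccl6 rose by 0.88 (limma adjusted p = 0.0163), with 92.7 ± 34.05 against 48.0 ± 9.26. Ccl3 and Ccl5, which also bind Ccr1, measured 16.2 ± 11.7 against 15.5 ± 6.70 and 104 ± 39.2 against 96.7 ± 30.1. Neither passed (limma adjusted p = 0.936 and 0.905).

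Ccl25, the ligand of Ccr9, measured 385 ± 73.3 normalized counts against 255 ± 39.4 (SD, n = 5 each), a rise of 0.59 (limma adjusted p = 0.00936), while Ccr9 did not pass. Only labelled Sirt1-deleted replicate 11 lay below the highest control for Ccl25. Cxcl16, the ligand of Cxcr6, measured 22.9 ± 2.13 against 22.3 ± 5.70 (limma adjusted p = 0.849). The stromal ligand Cxcl12 was under the minimum mean, at 6.12 ± 8.82 against 7.69 ± 1.40 normalized counts, and so were Ccl2 and Cx3cl1. Ccl7, Ccl12, Ccl19 and Ccl21a were not analysed here.

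**Figure D5:**
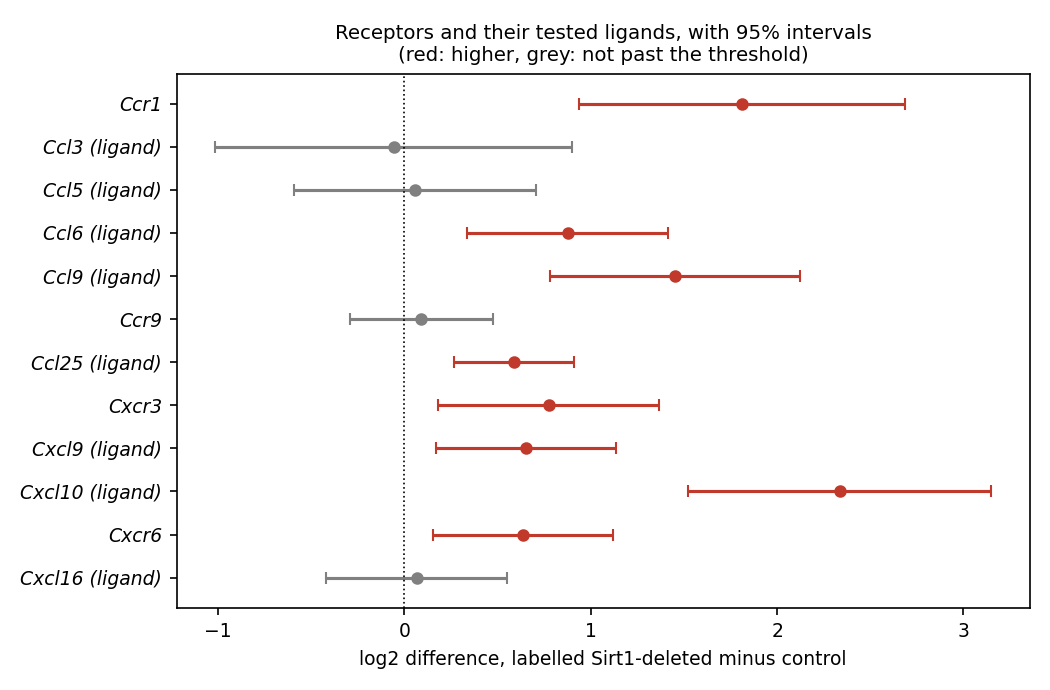
Log2 differences with 95% intervals (limma) of 4 receptors and their tested ligands. Cxcl10 at 2.34 and Ccl9 at 1.45 lie farthest to the right among the ligands, and Ccl3, Ccl5 and Cxcl16 span 0.

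Genes of the machinery behind the receptors moved in both directions. Of 34 listed signalling genes 33 were tested, 3 rose and 8 fell, where 16.8% and 19.4% of all tested genes did, with a median log2 difference of -0.06. Pik3cg, the lipid kinase activated by G protein beta-gamma subunits, fell from 2531 ± 191 to 1670.3 ± 126 normalized counts (SD, n = 5 each; -0.60, limma adjusted p = 1.83e-04). Gnai3, an inhibitory G protein alpha subunit through which these receptors signal, fell by 0.39 (limma adjusted p = 0.00152), and the kinase Grk6, the GTPases Rac1, Rac2 and Rap1b and the Rap effector Rassf5 fell by 0.18 to 0.34. Arrb1, a beta-arrestin that ends receptor signalling, fell by 0.61 (limma adjusted p = 0.0357), and its call was lost without labelled Sirt1-deleted replicate 7, 8 or 12 or control replicate 2 or 5 (highest limma adjusted p = 0.0942).

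The 3 signalling genes that rose were Vav1, a Rac exchange factor (0.33, limma adjusted p = 0.0116), Gnb2, a beta subunit (0.29, limma adjusted p = 0.00236), and Rgs14, a regulator that speeds G protein shut-off (0.30, limma adjusted p = 0.0337). The call of Rgs14 held only in the fits without labelled Sirt1-deleted replicate 10 or 11 or control replicate 3 among those that left out 1 spleen (highest limma adjusted p = 0.0858). Gnai2, the main inhibitory alpha subunit of leukocytes, measured 16388 ± 768 against 16818 ± 345 (limma adjusted p = 0.506).

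Of 14 adhesion and egress genes 4 rose and 3 fell, where 16.8% and 19.4% of all tested genes did, with a median log2 difference of 0.03. Gpr183, an oxysterol receptor that positions lymphocytes and dendritic cells, rose by 1.38 (limma adjusted p = 0.0198), the myeloid integrin Itgam by 1.36 (0.00236), the gut-homing integrin subunit Itgb7 by 0.81 (0.0173) and the hyaluronan receptor Cd44 by 0.44 (0.0125). The lymphocyte integrin subunits Itga4, Itgb1 and Itgal fell by 0.45, 0.33 and 0.28 (limma adjusted p = 0.00961, 0.00331 and 0.00227). S1pr1, the egress receptor, did not pass (limma adjusted p = 0.101).

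Of 12 transcription factors known to act on these receptors, 0 rose and 4 fell by limma, where 16.8% and 19.4% of all tested genes did. Of the remaining 8, 2 had an unadjusted p under 0.05, Notch3 and Runx3, both with a negative difference. Bach2, a repressor active in T cells, fell from 277 ± 93.5 to 146 ± 52.4 normalized counts (SD, n = 5 each; -0.92, limma adjusted p = 0.0129). Hif1a, an activator of Cxcr4 under low oxygen, fell by 0.30 (limma adjusted p = 0.0148), and the call of Tcf3, an E protein, was lost under upper-quartile rescaling (-0.07), under quantile normalization (-0.08) and without control replicate 2 (-0.12). Klf2, Foxo1, Gata3, Runx3, Eomes and Notch3 did not pass.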

How the data were processed

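RNA from 10 leukemic spleens, 5 per group, was sequenced from strand-specific libraries, per the labels' protocols. The authors deposited 1 table of gene-level normalized counts, a signal that is not in whole reads; kallisto 0.44.0, DESeq and the mm10 build are named in the submitters' processing notes. The annotation used by the authors is not given in the sources used here. Low values did not give whole reads, so no count model was run. From these values, log2(value + 1) was tested with limma 3.58.1 in R 4.3.3 (trended variance, Benjamini-Hochberg adjustment) over the 15276 genes with a mean of at least 10, and the procedure was tested on simulated data. Single members also got an exact permutation test, two-sided over every assignment of the 10 spleens. Groups came from the genotype label. The members and gene lists were chosen with earlier results of these data known. All 9 members are described; other named genes are, in each list, the 3 past the threshold with the largest log2 differences in each direction, ligands and partner receptors of members, lineage-defining markers, and the 3 most alike each member in pattern. Grk6, Rac1, Rac2, Rap1b, Rassf5, Gnai2, Cd44, S1pr1, Tbx21, Tcf3 and the transcription factors that did not pass were named outside that rule, after their values were seen. A few listed genes count in the totals and are not reported here by name. Gene spans, transcript lengths and shared 31-base words came from GENCODE M21, and promoters from RefSeq (GRCm38.p6). Alternatives were other pseudocounts, filters, scalings, weights, a rank-sum test and left-out spleens.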

Additional observations from a re-analysis of the deposited data

Results flagged for a closer look

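Single controls stood apart from the other 4 for 3 receptors, by the gap to the nearest sample as a share of the group's range (Dixon's critical value 0.71 for 5 samples). Ccr2 was lowest in control replicate 2, at 45.4 normalized counts, the other 4 controls lying between 71.3 and 81.1, a gap share of 0.724. Cx3cr1 was highest in control replicate 5, at 29.2 against 22.6 to 24.4, a gap share of 0.719. Ccr3 was lowest in control replicate 6, at 13.8 against 24.8 to 28.5, a gap share of 0.746. These 3 are of 36 sets of 5 values examined, where chance at 1 in 20 gives 1.8. A different control stood apart each time, and the calls of all 3 receptors held without it.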

How the results depend on the processing

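No paired analysis was run, because the labels give no pairing of labelled Sirt1-deleted with control spleens. Ccr2 and Ccr4 kept their direction and call in all settings run, Cx3cr1 in all in which it was tested, and Ccr1 in all but the exact rank-sum test (1.81, adjusted p = 0.0512). At a minimum mean of 50, Cx3cr1, Cxcr3 and Cxcr6 were not tested. With 1 spleen left out, Ccr1 ranged from 1.54 to 2.13, Ccr2 from 0.83 to 1.15, Ccr4 from -0.66 to -0.53 and Cx3cr1 from 0.88 to 1.09. Cxcr3 and Cxcr6 lost their calls at 0.77 and 0.63 with a minimum mean of 1 (limma adjusted p = 0.0561 and 0.0549), with no filter (0.0565 and 0.0553) and with the rank-sum test (0.0512 and 0.0823), and at 0.48 and 0.37 with quantile normalization. Cxcr3 also lost it at 0.74 with sample weights (limma adjusted p = 0.0503) and at 0.68 without labelled Sirt1-deleted replicates 10 and 11 (0.111). Leaving out 1 spleen gave 0.66 to 0.88 for Cxcr3, 0.50 to 0.73 for Cxcr6 and -0.018 to 0.22 for Ccr9. Ccr7 and Cxcr4 did not pass in any setting run. The causes of these changes were not tested.

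The number of genes that differ, 5518 (2562 higher, 2956 lower), was 3659 with the rank-sum test (1691 higher, 1968 lower) and 2850 at an adjusted p under 0.01 (1328 higher, 1522 lower). It ranged from 4207 to 6259 with 1 spleen left out (1975 to 2920 higher, 2232 to 3339 lower). Upper-quartile rescaling called 3162 higher and 2272 lower and moved the median of all tested genes to 0.06.

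Among genes that did not pass, Ccr10 turned to 0.18 without labelled Sirt1-deleted replicates 10 and 11. Ccl5 turned to -0.14 with quantile normalization, -0.13 with sample weights and -0.26 without those replicates, Cxcl16 to -0.22 with quantile normalization, and Ccl3 to 0.11 with sample weights and 0.061 without those replicates. With 1 spleen left out, the ranges were -0.29 to 0.079 for Ackr3, -0.39 to 0.16 for Ccl3, -0.12 to 0.31 for Ccl5 and -0.021 to 0.19 for Cxcl16. The rank-sum test took the calls of Ccl6, Ccl25, Cxcl9, Arrb1, Rgs14, Rac1, Vav1, Gpr183, Cd44, Itga4, Itgb7, Notch1, Hif1a and Bach2. Of the lineage markers it also took the calls of Mpo, Csf1r, Fcgr1, Itgax, Batf3, Siglech, Rag1, Il2ra, Ctla4, Col1a2 and Pdgfrb. Over 76 other listed genes, 1440 of 1582 values in other settings kept direction and call. Without whole reads, no counting interval could be given for the low receptors.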
